A study of Mus musculus with 5 samples.

Results

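Matricellular and adhesive glycoproteins were read in mesenchymal stem cells of mice as 9 genes, Tgfbi, Postn, Sparc, Thbs1, Thbs2, Tnc, Fn1, Ctgf and Cyr61. They were chosen with earlier results of these data known, and all 9 were among the 12621 genes of the deposited table. The cells, stromal progenitors grown on plastic that are able to give rise to bone, cartilage and fat, were either wild type or knockout for TSG-6, a secreted hyaluronan-binding protein encoded by Tnfaip6. Every sample carries the strain label Balb/c (C.129S6), and whether both genotypes carry the same 129S6 parts is not stated. The labels name no treatment, time, passage, age or allele design. The table held 2 wild-type and 3 knockout libraries of poly(A) RNA, and the suffixes C1, C2 and SE set the columns apart, with no C2 in the wild type. The labels do not explain these suffixes. The series' design text speaks of 2 biological replicates for each cell type, although 3 knockout samples are listed, so n = 3 knockout libraries may stand for fewer independent samples. Whether any libraries share an animal or a culture is not stated either, and p-values therefore reflect only the spread among these libraries, which may be technical.

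Matricellular proteins are secreted into the extracellular matrix but serve less as scaffold than as signals between the matrix, growth factors and cell-surface integrins. Fibronectin (Fn1) is the adhesive fibre former of this group, periostin (Postn) and TGFBI are a related pair of adhesion proteins that bind collagen and integrins, and thrombospondins (Thbs1, Thbs2), tenascin-C (Tnc) and SPARC modulate adhesion, protease activity and growth factor release. CTGF and CYR61, now also called CCN2 and CCN1, are cysteine-rich secreted proteins whose genes respond quickly to mechanical tension through the co-activators YAP and TAZ, partners of TEAD transcription factors, and to TGF-beta through SMAD factors. In stromal cells these genes are widely used as readouts of spreading, tension and TGF-beta signalling.

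The knockout libraries had almost no Tgfbi, less Tnc, and more Postn, Ctgf and Cyr61, while Sparc, Thbs2 and Fn1 had overlapping groups. Thbs1 was higher in every knockout library than in either wild-type library but did not pass the test. Values are normalised counts, that is, reads of a gene scaled by a factor for its library, with mean ± SD, n = 2 wild-type and n = 3 knockout libraries. The test was limma on log2 of the value plus 0.5, with Benjamini-Hochberg adjustment over 12484 genes, and a gene was called at an adjusted p under 0.05. All 9 genes passed the filter on low values. Of them, 3 were called higher and 2 lower, beside 17.2% of all tested genes called higher and 17.1% called lower (34.3% in either direction). Every knockout library was above every wild-type library for 4 of the 9, beside 28.0% of all tested genes, and below for 2, beside 30.7%, so 6 of the 9 did not overlap, beside 58.8%. On the recovered reads, edgeR's quasi-likelihood test and DESeq2 called the same 3 and 2 members, beside 16.3% higher and 16.3% lower in edgeR and 20.8% and 17.9% in DESeq2. With the suffix as a block in limma, 4 members were called higher and 2 lower, beside 28.3% and 32.3%. The median log2 fold change was 0.70 over the 9 genes and -0.09 over all tested genes.

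**Figure D1:**
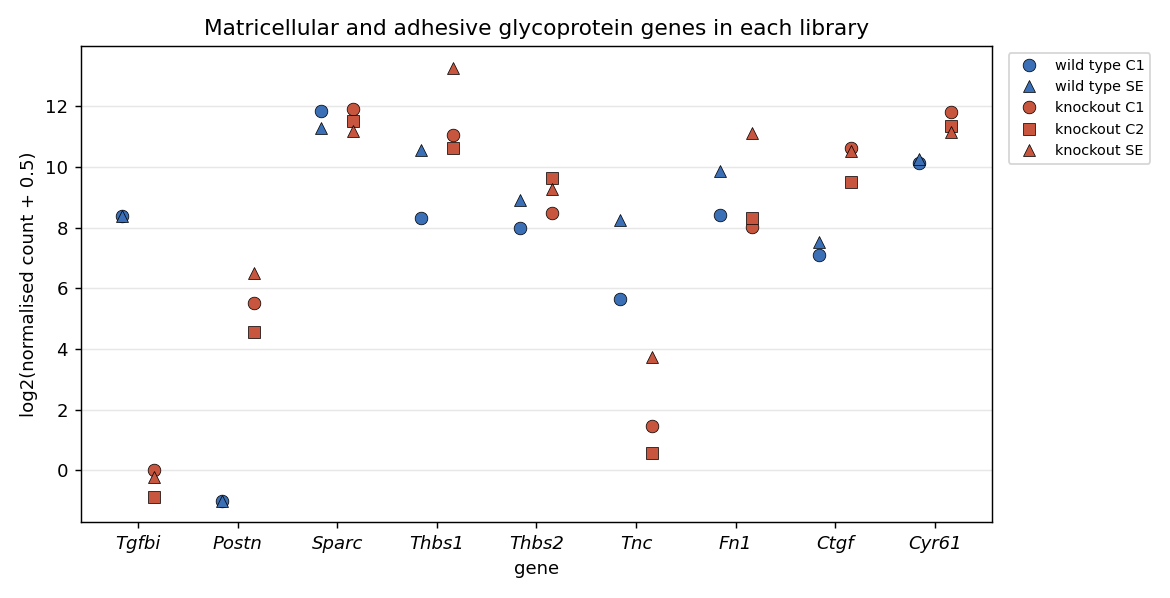
Level of each of the 9 genes in each library, as log2 of the normalised count plus 0.5; blue points are wild-type and red points knockout libraries, and the shape gives the library suffix. Tgfbi and Tnc were lower in all 3 knockout libraries than in both wild-type libraries, Postn, Thbs1, Ctgf and Cyr61 were higher in all 3, and Sparc, Thbs2 and Fn1 overlap.

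The libraries held 13605555 to 26658725 reads in genes, recovered from the deposited values. Correlations of log2 values across genes were 0.946 to 0.982 (Pearson r) between libraries of the same genotype and 0.753 to 0.810 between genotypes. A first principal component with 80.4% of the variance parted the genotypes, and a second with 14.7% parted the SE from the C libraries, which therefore stand apart within each genotype. Tnfaip6 was at 6.04 (C1) and 3.21 (SE) in wild-type cells and at 1.65 (C1), 2.38 (C2) and 1.36 (SE) in the knockout, lower in all 3 knockout libraries but not called (limma, adjusted p = 0.0578). Of 10 stromal markers, 8 were analysed and none was at 0 in any library; Cxcl12, a chemokine of marrow stroma, was called higher, Ly6a, the SCA-1 antigen, lower, and the other 6 were not called. Their summed value was 4665 and 3944 in wild-type libraries and 11883 to 19033 in the knockout, most of the latter from Cxcl12, while Thy1 and Lepr were not analysed here. Of 8 epithelial and mesothelial markers, 3 were analysed and all 3 were lower in the knockout: their summed value was 321 and 368 in the wild type and 2.51 to 5.88 in the knockout, most of it from mesothelin (Msln), with Krt18 at 0 in every knockout library. Of 8 haematopoietic markers, 4 were analysed, with summed values of 66.9 to 94.4 in the wild type and 50.1 to 59.1 in the knockout. The macrophage genes Lyz2 and Csf1r were higher in the knockout, Cd14 was lower and Cd68 was not called. Ptprc, Adgre1, Itgam and Tyrobp were not analysed here. Of 8 endothelial markers only Vwf was analysed, at 0 to 0.0405 in the wild type and 0.376 to 3.80 in the knockout. In bulk RNA, fewer cells of a type and less RNA per cell cannot be told apart, and the part of these other cell types in the results on the 9 genes was not tested.

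The 250 bases before the RefSeq start site (GRCm38.p6) are printed for 3 genes: Tgfbi and Postn, whose proteins are related and whose transcripts went opposite ways, and Cyr61, the one of the CCN pair with an entry. Capitals mark matches to the motifs searched on both strands: the TEAD motif GGAATG, the AP-1 motif TGANTCA, the SMAD motif CAGAC, the CArG box and the TATA box TATAAA. Entries existed for 6 of the 9 genes, with 8 start sites. Thbs1, Fn1 and Ctgf had none.
Tgfbi, chr13:56609336-56609585, plus strand: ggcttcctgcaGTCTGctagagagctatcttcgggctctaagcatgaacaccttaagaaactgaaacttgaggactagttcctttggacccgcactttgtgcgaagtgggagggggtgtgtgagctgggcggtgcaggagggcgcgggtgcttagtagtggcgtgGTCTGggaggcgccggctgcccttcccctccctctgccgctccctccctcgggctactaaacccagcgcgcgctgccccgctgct
Postn, chr3:54360857-54361106, plus strand: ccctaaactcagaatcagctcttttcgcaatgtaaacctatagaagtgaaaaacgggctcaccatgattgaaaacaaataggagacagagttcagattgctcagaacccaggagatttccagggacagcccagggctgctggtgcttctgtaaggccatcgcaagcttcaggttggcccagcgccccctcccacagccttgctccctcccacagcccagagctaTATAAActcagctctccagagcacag
Cyr61, chr3:145649986-145650235, minus strand: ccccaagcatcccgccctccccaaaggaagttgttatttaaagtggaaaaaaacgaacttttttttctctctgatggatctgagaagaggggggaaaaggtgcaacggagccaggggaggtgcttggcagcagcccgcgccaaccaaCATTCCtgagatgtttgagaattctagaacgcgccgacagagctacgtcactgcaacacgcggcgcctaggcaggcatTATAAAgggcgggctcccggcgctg

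The Cyr61 stretch held the TEAD motif once, on the opposite strand 98 to 103 bases before the start site, and a TATA box 20 to 25 bases before it. The Postn stretch held a TATA box 21 to 26 bases before the start site and none of the other motifs. The stretch before the other Postn start site, upstream and not printed, held the SMAD motif 187 to 191 bases before that site and no TATA box. The Tgfbi stretch held the SMAD motif at 2 places on the opposite strand and no TATA box. The GC box GGGCGG was also searched and is left uncapitalised, a choice made after its matches were seen: Cyr61 held 2 matches, Tgfbi 1 and Postn none. Among 32851 promoter stretches of the same length, 32.7% held the GC box, 12.6% held the TEAD motif, 12.4% the TATA box, 42.2% the SMAD motif, 6.75% the AP-1 motif and 1.47% the CArG box. A match is a match of letters only, and none of these libraries measured binding.

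Tgfbi, whose protein is a matrix adhesion protein named for its induction by TGF-beta (ENSMUSG00000035493, chromosome 13, 56609523 to 56639562, plus strand, GRCm38), stood at 331 (C1) and 332 (SE) in the wild type. Its knockout values were 0.517 (C1), 0.0378 (C2) and 0.358 (SE). The wild-type libraries were nearly equal and every knockout library lay far below them. In reads these were 14580 from wild-type and 17 from knockout libraries, a ratio of read rates of 1202 with an exact 95% interval from 751 to 2065 that covers counting error only. The log2 fold change was -8.74 (SE 0.36, limma adjusted p = 5.28e-05), and Tgfbi ranked 6 from the lowest among all tested genes. The fold of group means was 1089, with 1674 without knockout C1 and 757 without knockout C2. The 50 nearest tested genes, taken in equal number on each side by start position, had a median log2 fold change of -0.26. Of these, 9 were called higher and 8 lower, in a window of 8.11 Mb. Such windows were wide, from 5.85 Mb for Sparc to 27.5 Mb for Tnc.

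Postn, the relative of Tgfbi that is best known from the periosteum and from healing tissue (ENSMUSG00000027750, chromosome 3, 54361109 to 54391037, plus strand), went the other way. No read was counted in wild-type C1 or wild-type SE. Its knockout values were 45.1 (C1), 23.3 (C2) and 90.9 (SE), counted from 959, 616 and 1269 reads. Postn was therefore present in all 3 knockout libraries and in neither wild-type library. With a floor of 3 reads in each wild-type library, the knockout mean of 53.1 ± 34.5 was at least 383-fold higher, and at least 247-fold higher without knockout SE. The log2 fold change on the scale with the pseudocount was 6.53 (SE 0.56, limma adjusted p = 3.99e-04), while the 50 nearest tested genes had a median of -0.59. Even in the knockout, Postn stayed a minor transcript of the group, at 6.10 ± 3.97 normalised counts per kb of exon against 804 ± 203 for Sparc.

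Ctgf (ENSMUSG00000019997, chromosome 10, 24595442 to 24598683, plus strand) encodes a secreted CCN protein that promotes matrix production by connective tissue cells. Its values were 137 (C1) and 182 (SE) in wild-type cells, against 1581 (C1), 719 (C2) and 1470 (SE) in the knockout. The lowest knockout library was well above the highest wild-type library. The means were 160 ± 32.0 and 1257 ± 469, a 7.87-fold difference (log2 fold change 2.90, SE 0.40, limma adjusted p = 0.00241). Whether it passed with fewer libraries turned on which genes were tested. With the 12484 genes kept, the call was lost without wild-type C1 (adjusted p = 0.0586) and without both SE libraries (0.0584), whereas with the filter on low values applied again to the remaining libraries it held (0.0213 and 8.57e-04). The neighbourhood of Ctgf, a window of 15.3 Mb, moved in the same direction. Of its 50 nearest tested genes, 26 were called higher and 2 lower, with a median log2 fold change of 1.25. Relative to that median, Ctgf was higher by 1.65 on the log2 scale.

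Cyr61 (ENSMUSG00000028195, chromosome 3, 145646976 to 145649981, minus strand), the other CCN gene, encodes an integrin ligand that supports adhesion and migration. It was already abundant in the wild type, at 1130 (C1) and 1238 (SE). Its knockout values were 3620 (C1), 2583 (C2) and 2289 (SE), all above the wild type. The means were 1184 ± 76.5 and 2830 ± 699, a 2.39-fold difference (log2 fold change 1.23, SE 0.33, limma adjusted p = 0.0286). This call was lost without wild-type C1 (adjusted p = 0.198), wild-type SE (0.168), knockout C1 (0.0792), knockout C2 (0.0742) or both SE libraries (0.0787). With the filter applied again it held without both SE libraries (0.0101) and was lost without the same 4 single libraries, while the fold stayed between 2.06 and 2.62 without single libraries. Its 50 nearest tested genes had a median log2 fold change of -0.06. The CCN pair shifted toward Ctgf: the ratio of Cyr61 to Ctgf per kb of exon was 11.7 and 9.62 in the wild type and 3.24, 5.09 and 2.21 in the knockout. These ratios did not overlap, and the exact two-sided permutation test gave p = 0.2, the smallest it can give with 2 against 3 libraries.

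**Figure D2:**
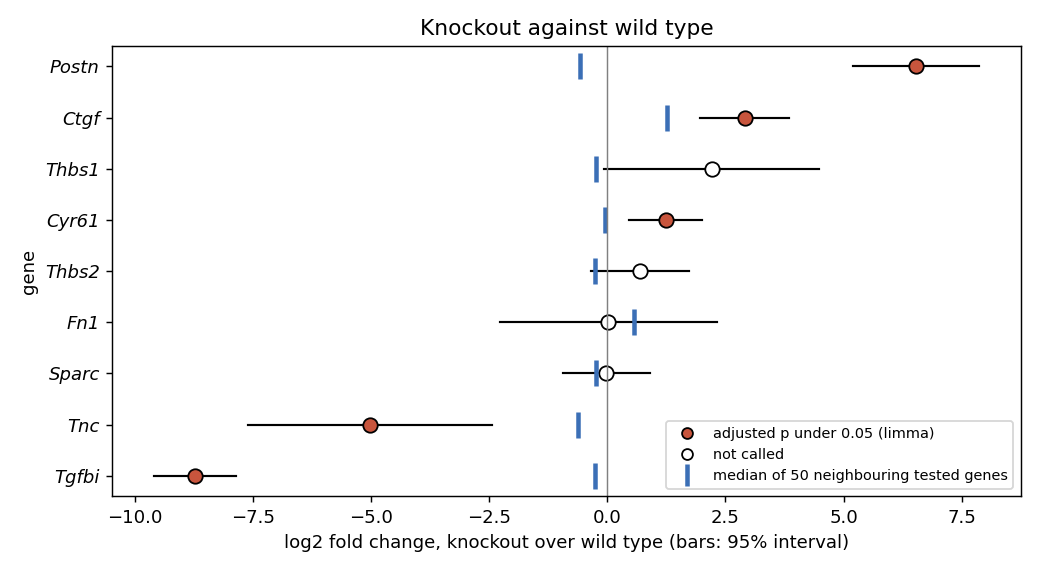
Log2 fold change of each gene, knockout over wild type, with its 95% interval from limma; filled points passed an adjusted p of 0.05 and blue ticks give the median of the 50 nearest tested genes on the chromosome. Tgfbi (-8.74) and Postn (6.53) lie at the ends, and the interval of Fn1 runs from -2.27 to 2.31.

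Tnc (ENSMUSG00000028364, chromosome 4, 63959785 to 64047015, minus strand) encodes tenascin-C, a large hexameric glycoprotein that weakens adhesion to fibronectin and appears in embryonic and healing tissue. Its wild-type values were 49.9 (C1) and 303 (SE). Knockout libraries held 2.26 (C1), 0.984 (C2) and 12.9 (SE). Within each genotype SE was the highest library, and the highest knockout library was still below the lowest wild-type library. The means were 177 ± 179 and 5.38 ± 6.54, a 32.8-fold fall (log2 fold change -5.03, SE 1.08, limma adjusted p = 0.0138). The fold was 9.27 without wild-type SE, 56.4 with wild-type C1 left out and 109 with knockout SE left out, and the call was lost without wild-type C1 (adjusted p = 0.0599) and wild-type SE (0.150). With the filter applied again it held without wild-type C1 (0.0158) and was lost without wild-type SE (0.0689). The 50 nearest tested genes had a median of -0.63.

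Thbs1 (ENSMUSG00000040152, chromosome 2, 118111876 to 118127133, plus strand) encodes thrombospondin-1, which binds the receptors CD36 and CD47 and can activate latent TGF-beta. It had values of 319 (C1) and 1525 (SE) in wild-type cells, against 2143 (C1), 1564 (C2) and 9929 (SE) in the knockout. The groups did not overlap, although wild-type SE and knockout C2 differed by little, and in knockout SE this single gene held 1.02% of the summed values of the library. The log2 fold change was 2.20 (SE 0.95, 95% interval -0.08 to 4.49, limma adjusted p = 0.121), which did not pass. The fold of means was 4.93, and it was 2.98 without wild-type C1, 14.3 without wild-type SE and 2.01 without knockout SE. Compared within a suffix, Thbs1 was 5.82-fold higher in the knockout among the C libraries and 6.51-fold higher among the SE libraries. With the suffix as a block it was called higher (log2 fold change 2.60, SE 0.19, limma adjusted p = 9.16e-05), and likewise without both SE libraries (adjusted p = 0.0338).

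Thbs2 (ENSMUSG00000023885, chromosome 17, 14665500 to 14694235, minus strand) encodes thrombospondin-2, a close relative that influences collagen fibre assembly and restrains vessel growth. Its values were 252 (C1) and 479 (SE) in wild-type cells and 357 (C1), 802 (C2) and 623 (SE) in the knockout. Knockout C1 fell between the wild-type libraries, and the difference was not called (log2 fold change 0.70, SE 0.43, 95% interval -0.34 to 1.74, limma adjusted p = 0.258). The ratio of Thbs1 to Thbs2 per kb of exon was 1.46 and 3.67 in the wild type and 6.92, 2.25 and 18.4 in the knockout. These ratios overlapped between genotypes (exact two-sided permutation p = 0.4).

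Sparc (ENSMUSG00000018593, chromosome 11, 55394500 to 55423183, minus strand) encodes a collagen-binding protein abundant in bone and in cultured stromal cells. It was at 3661 (C1) and 2510 (SE) in wild-type cells and at 3861 (C1), 2949 (C2) and 2329 (SE) in the knockout. Both SE libraries were below all C libraries, and the genotypes overlapped. The means were 3085 ± 814 and 3046 ± 770, with a log2 fold change of -0.02 (SE 0.38, 95% interval -0.94 to 0.89, limma adjusted p = 0.970), an interval that leaves room for a change of almost 1 on the log2 scale in either direction.

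Fn1 (ENSMUSG00000026193, chromosome 1, 71585520 to 71653200, minus strand), the gene of fibronectin, was at 339 (C1) and 935 (SE) in wild-type cells and at 262 (C1), 319 (C2) and 2222 (SE) in the knockout. The SE libraries were the highest in both genotypes, by 2.75-fold in the wild type and by 7.64-fold over the mean of the C libraries in the knockout. The log2 fold change was 0.02 (SE 0.96, 95% interval -2.27 to 2.31, limma adjusted p = 0.9904). Among the C libraries Fn1 was lower in the knockout, by a factor of 1.17, and among the SE libraries it was 2.38-fold higher. Fn1 was the only one of the 9 genes whose genotype difference turned direction between the suffixes, beside 7.99% of all tested genes. A gene on the opposite strand overlaps each of Fn1, Ctgf, Thbs1 and Tnc in the annotation, and since the labels do not say whether counting used strand, part of their reads could belong to it. None of these overlapping genes had values in the analysed table.

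**Figure D3:**
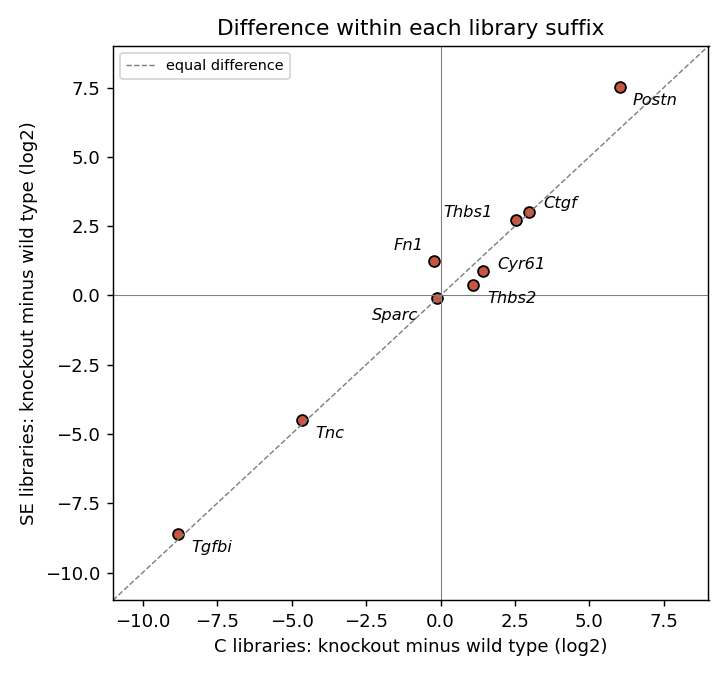
Difference between knockout and wild type in log2 of the normalised count plus 0.5, among the C libraries (horizontal axis, 1 wild-type and 2 knockout libraries) and the SE libraries (vertical axis, 1 library each), for the 9 genes. Points on the dashed line have equal differences; Fn1 lies at -0.23 and 1.25, and the other genes have the same sign on both axes.

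Levels also differed by suffix. Thbs1, Tnc and Fn1 were higher in SE than in every C library in both genotypes, which 33.1% of all tested genes were, and Sparc was lower in SE in both, as were 37.0%. Tnc had a similar genotype difference in both suffixes, at -4.64 among C and -4.50 among SE libraries on the log2 scale. Its lowest knockout values lay near the pseudocount of 0.5. Without the pseudocount, Tnc was 30.8-fold lower in the knockout among the C libraries and 23.5-fold lower among the SE libraries. Ctgf, with 2.96 and 3.01, Thbs1, with 2.52 and 2.70, and Sparc, with -0.12 and -0.11, were also close. Tgfbi had -8.81 and -8.60, but its knockout values lay near or below the pseudocount of 0.5. Without the pseudocount, Tgfbi was 1193-fold lower in the knockout among the C libraries and 927-fold lower among the SE libraries. Postn differed more, at 6.04 and 7.51. What the suffix stands for is not given, and its part in the values was not tested beyond these comparisons.

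Levels of different genes were compared per kb of exon. In the wild type Sparc stood first, at 814 ± 215 normalised counts per kb, followed by Cyr61 at 586 ± 37.9 and Thbs1 at 152 ± 140. Tgfbi came next, at 87.9 ± 0.184, before Ctgf (55.8 ± 11.2), Fn1 (54.5 ± 36.0), Thbs2 (52.2 ± 23.0) and Tnc (22.7 ± 23.1), with Postn at 0. The ranges of the libraries overlapped for the neighbours Thbs1 and Tgfbi, Ctgf and Fn1, Fn1 and Thbs2, and Thbs2 and Tnc. In the knockout Cyr61 stood first, at 1402 ± 346 per kb, before Sparc at 804 ± 203, Thbs1 at 748 ± 769 and Ctgf at 439 ± 164. Thbs2 (84.9 ± 32.0) and Fn1 (79.97 ± 95.4) followed, and Postn (6.10 ± 3.97), Tnc (0.692 ± 0.842) and Tgfbi (0.0807 ± 0.0648) came last. Here the ranges of Sparc and Thbs1, Thbs1 and Ctgf, Thbs2 and Fn1, and Tnc and Tgfbi overlapped.

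The sum of the 9 genes per kb was 1786 (C1) and 1866 (SE) in wild-type cells and 3797 (C1), 2711 (C2) and 4189 (SE) in the knockout. Every knockout library was above both wild-type libraries, with a ratio of means of 1.95 (exact two-sided permutation p = 0.2, the smallest possible). Most of the sum came from few genes. Sparc made up 54.1% and 35.5% of it in the wild type and 14.7% to 28.7% in the knockout. Cyr61 and Ctgf together with Thbs1 filled most of the rest in the knockout, where Thbs1 alone reached 39.0% in SE and 9.30% and 9.50% in C1 and C2. Tgfbi went from 4.92% and 4.72% to at most 0.0036%.

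**Figure D4:**
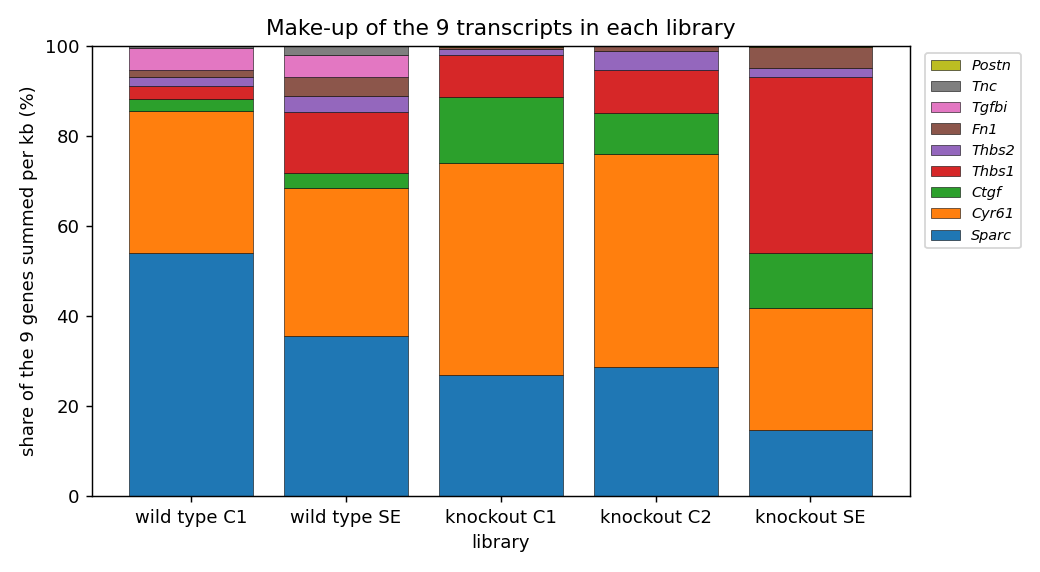
Share of each gene in the sum of the 9 genes per kb of exon, in percent, for each library. Sparc is the largest part in both wild-type libraries, Cyr61 in knockout C1 and C2 and Thbs1 in knockout SE.

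By the distance of gene-centred log2 values over the 5 libraries, the genes most like Tgfbi were Bmp2 (distance 0.71) and Klra4 (0.77), the latter of a family of similar genes among which reads can be split. Limch1 (0.60) and Npr3 (0.78) were most like Postn, Rasgrp2 (0.37) and Dlx5 (0.41) most like Ctgf, and Cnn2 (0.18) and Osr1 (0.20) most like Cyr61. The values carry the pseudocount of 0.5, which shrinks differences of genes near 0. Dlx5 was at 0 in the wild type and at 2.35 to 4.98 in the knockout. Rasgrp2 was at 0.0405 and 0.155 in the wild type, so the likeness of these genes to Ctgf depends on the pseudocount. Ltbp4 (1.40) and Cspg4 (1.70) were nearest to Tnc, and Dopey2 (0.52) and Fam160a1 (0.77) to Thbs1. Fn1 was followed closest by Tle3 (0.16) and Notch1 (0.26), Sparc by Rgs19 (0.06) and Cinp (0.07), and Thbs2 by Srl (0.21) and Tmem268 (0.27). With 5 libraries that share 2 genotypes and 2 kinds of suffix, many genes have similar patterns, and these distances are descriptions only.

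Relatives of the 9 genes were more often called higher than lower. Of 21 listed family relatives 12 were tested, of which 7 rose and 2 fell, with a median log2 fold change of 1.80, beside 17.2% of all tested genes called higher and 17.1% lower. Leaving out either wild-type library lowered both counts, as it did over all tested genes. The CCN gene Wisp2, also called CCN5, rose from 174 ± 24.3 to 1719 ± 288, a 9.85-fold difference (limma adjusted p = 3.32e-04). Nov, or CCN3, fell 7.60-fold (limma adjusted p = 0.0205), with 75.4 and 35.5 in the wild type and 3.24, 16.1 and 2.58 in the knockout. Nov fell 19.0-fold without knockout C2 and 4.87-fold without wild-type C1, and was not called without wild-type C1 (adjusted p = 0.195) or wild-type SE (0.109). Smoc1, a SPARC-related calcium-binding protein, rose from 0.208 ± 0.221 to 48.95 ± 20.1, or 235-fold (945-fold without wild-type C1 and 134-fold without wild-type SE). Comp, the thrombospondin of cartilage, had 371 knockout reads against 2 wild-type reads, and the read rates differed 132-fold, with an exact 95% counting interval from 36.4 to 1097. The fold of mean values was 128, and 64.3 without wild-type C1. Tnxb, a tenascin of loose connective tissue, fell 29.9-fold, from 9.22 ± 0.434 to 0.309 ± 0.156.

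Glycoproteins of elastic fibres and basement membranes also had more rises than falls, with 7 higher and 2 lower of 17 tested and a median log2 fold change of 1.31, again beside 17.2% and 17.1% of all tested genes. The counts were 12 and 2 with the suffix as a block (beside 28.3% and 32.3% of all tested genes). Without knockout C1 they were 7 and 1, beside 1718 and 1613 of all 12484 tested genes. With either wild-type library left out both counts fell, as they did over all tested genes. Fbln1, fibulin-1, which binds fibronectin, rose from 5.24 ± 0.0675 to 192 ± 20.9 (log2 fold change 5.07, SE 0.22, limma adjusted p = 5.92e-05). Mfap5, a microfibril glycoprotein, rose 62.2-fold and Igfbp7, a secreted adhesive binding protein, 10.9-fold. Fbn2, the fibrillin of developing tissue, had 1177 wild-type reads and 1 knockout read, so that the read rates differed 1650-fold, with an exact 95% counting interval from 296 to 65228. Efemp1, fibulin-3, fell 4.33-fold (limma adjusted p = 0.0428), 11.4-fold without knockout C2, and was not called without wild-type C1, wild-type SE or knockout C1 (adjusted p = 0.253, 0.202 and 0.0874).

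Receptors for these ligands changed in both directions, with 5 higher and 3 lower of 16 tested and a median of 0.39. These were 8 of 16 called, beside 34.3% of all tested genes. With the suffix as a block the counts were 8 and 4, beside 28.3% and 32.3% of all tested genes. Both counts fell when either wild-type library was left out, as they did over all tested genes. Cd36, a receptor of thrombospondin-1 and a fatty acid transporter, had no wild-type read and knockout values of 8.09 (C1), 29.0 (C2) and 10.2 (SE), at least 114-fold higher, and at least 65.9-fold higher without knockout C2. It passed the filter on low values only through the knockout. Itgb5, the integrin chain that pairs with alpha-V, rose 5.30-fold to 1005 ± 121. The heparan sulfate carriers were split: Sdc1 rose 5.69-fold, whereas Sdc2 fell 2.57-fold and Sdc4 2.72-fold. Sdc2 and Sdc4 were not called without wild-type C1 (adjusted p = 0.0759 and 0.179) or wild-type SE (0.0594 and 0.0890), nor was Sdc4 without knockout C2 (0.0698). Itgb8, whose integrin activates latent TGF-beta, fell from 63 reads to 4, a 16.0-fold difference that was 59.3-fold without knockout SE and 10.6-fold without knockout C2. The fibronectin receptor chains Itgb1 and Itga5 had log2 fold changes of -0.00 and -0.17 and were not called.

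Of 16 tested genes for collagen processing and cross-linking, 6 rose and 1 fell, with a median of 0.65, so that 43.8% were called beside 34.3% of all tested genes. The counts were 12 and 2 with the suffix as a block, beside 28.3% and 32.3% of all tested genes. Without either wild-type library fewer were called higher, in this list and over all tested genes. P4ha3, a prolyl hydroxylase subunit, rose from 2.10 ± 0.330 to 52.7 ± 17.5, P4ha2 rose 3.21-fold and the lysyl oxidase relative Loxl3 2.60-fold. P4ha2 was just short of the threshold without wild-type SE (adjusted p = 0.0501). Plod2, the lysyl hydroxylase of collagen telopeptides, fell 4.39-fold, from 135 ± 8.64 to 30.8 ± 2.47.

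Other targets of YAP and TAZ moved in both directions. Of 20 such genes tested, 4 rose and 5 fell, with a median log2 fold change of 0.28, so that 45.0% were called beside 34.3% of all tested genes. With the suffix as a block 10 were called higher and 6 lower, beside 28.3% and 32.3% of all tested genes. Fewer were called in each direction without either wild-type library, as over all tested genes. F3, tissue factor, rose from 67.3 ± 8.10 to 1046 ± 65.3, a 15.6-fold difference (limma adjusted p = 8.75e-05). Tgfb2, a TGF-beta ligand, rose 9.25-fold and Ccdc80, a secreted matrix protein, 8.87-fold. Ankrd1, a nuclear and sarcomeric ankyrin repeat protein often used with Ctgf and Cyr61 as a readout of YAP, fell from 32.7 and 46.1 to 0.846, 0.0378 and 0.573 (log2 fold change -5.42, SE 0.46, limma adjusted p = 3.86e-04). These knockout values lay near or below the pseudocount of 0.5, so the log2 fold change depends on it. Without the pseudocount the fold of means of Ankrd1 was 81.1, with 129 without knockout C1 and 55.5 without knockout C2. Nt5e, the ectonucleotidase CD73, fell 145-fold, and Igfbp3, an IGF binding protein, had 103 wild-type reads and 3 knockout reads, so that the read rates differed 48.1-fold, with an exact 95% counting interval from 16.0 to 237.

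Among 25 upstream regulators tested, 5 rose and 4 fell, with a median of -0.12, and the 36.0% called were near the 34.3% of all tested genes. The counts were 9 and 8 with the suffix as a block, beside 28.3% and 32.3% of all tested genes. They fell when either wild-type library was left out, as did those over all tested genes. With knockout SE left out the counts of this list were 6 and 9, beside 2409 and 2629 of all 12484 tested genes. Wwtr1, which encodes TAZ, fell from 254 and 279 in the wild type to 83.5, 73.8 and 126 in the knockout, a 2.82-fold difference (limma adjusted p = 0.00777), and the TEAD genes Tead2 and Tead4 fell 5.67-fold and 3.35-fold. Yap1 had a log2 fold change of -0.15 and was not called. Smad6, an inhibitor of BMP signalling, rose 7.10-fold, the ligand gene Tgfb3 2.21-fold and Ltbp2, a microfibril protein of the latent TGF-beta binding family, 17.5-fold. The fold of Ltbp2 was 8.14 without knockout SE, 11.5 if wild-type C1 was left out and 36.9 without wild-type SE. Of the 6 regulators named by rule here, 2 were called without wild-type C1 (Tead2 and Smad6) and 1 without wild-type SE (Smad6), and all 6 without any single knockout library. Where a wild-type library is left out, the lone one is assumed to vary like the knockout.

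**Figure D5:**
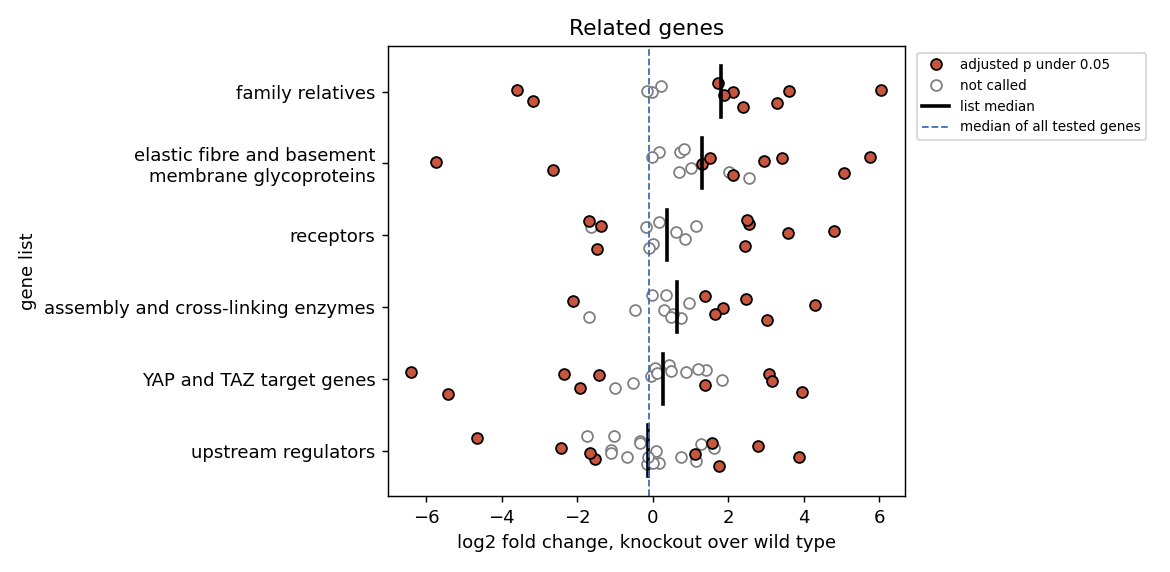
Log2 fold change, knockout over wild type, of the tested genes of each related list; filled points passed an adjusted p of 0.05 (limma), black bars give each list's median and the dashed line the median of all tested genes (-0.09). The medians run from -0.12 for the upstream regulators to 1.80 for the family relatives.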

How the data were processed

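The authors deposited 1 table of normalised counts, a signal in which reads per gene are scaled by a factor for each library. That factor was not the recovered read total alone, since column totals ran from 931660 (wild-type SE) to 1052926 (wild-type C1). The submitters' processing notes list STAR 2.5, featureCounts 1.5.2 and edgeR with no role for any of them, and build and strand setting are not given in the sources used here. Every value was a whole multiple of the value of 1 read within 0.02 of a read (100% of values), which gave whole reads. Columns name genotype but no replicate number, so libraries were unnumbered members of their group. The main test was limma 3.58.1 (eBayes with a trend, 3 residual degrees of freedom) on log2 of the value plus 0.5, for genes with at least 1 in 2 or more libraries, at a threshold of 0.05. edgeR 4.0.16 and DESeq2 1.42.0 on recovered reads, rescaling, other pseudocounts and filters, a suffix block and left-out libraries were alternatives. Left-out fits were run first with the filter on low values applied again. Because this removed genes such as Tgfbi when a wild-type library was left out, the 12484 tested genes were then kept instead. That choice was made after the first results had been seen, it changes calls, and both versions are given for the members and the counts. Calls of other genes without a library are from the kept set. Coordinates and lengths (union of exons) came from GENCODE M21 by Ensembl identifier, matching 12607 genes. The fit was also run on simulated counts of independent libraries with no suffix effect, so that run gives no error rate for these data.

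The members, lists and alternatives were chosen with earlier results of these data known. Named genes were the 9 members, Tnfaip6, up to 3 called genes per direction and list with the smallest p-value, and for each member the 2 genes nearest in pattern. Itgb1, Itga5, Yap1 and the markers named were chosen after their values were seen. A floor of 3 reads per library gave bounds. Calculations used R 4.3.3 and Python 3.11.15.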

Additional observations from a re-analysis of the deposited data

Results flagged for a closer look

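Fn1 differed between genotypes in opposite directions within the library suffixes: among the SE libraries it was 2.38-fold higher in the knockout, from 1 library each, and in both knockout C libraries it was below wild-type C1, by a factor of 1.17 for their mean. An interaction of genotype and suffix, chosen after the data were seen and resting on 1 residual degree of freedom, was 1.48 on the log2 scale for Fn1 (SE 0.34, unadjusted p = 0.0229 and adjusted p = 1.00 in limma over 12484 genes). That interaction passed for 0 genes at an adjusted p of 0.05 and for 327 at an unadjusted p under 0.05.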

How the results depend on the processing

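Tgfbi and Postn were called in the same direction in all 18 alternatives, with log2 fold changes from -10.15 to -8.01 and from 5.55 to 13.13. Among these, the fits with fewer libraries kept the tested genes. With the filter applied again, Tgfbi was not tested without wild-type C1, wild-type SE or both SE libraries. Tgfbi passed the filter only through the wild-type libraries, and Postn only through the knockout. Some list genes also passed through a single genotype. Examples are Cd36, Smoc1 and Comp through the knockout, and Fbn2, Igfbp3, Ankrd1, Tnxb and Itgb8 through the wild type. These genes are among the calls of their lists, so the list counts rest partly on the filter. Tnfaip6 was called in 3 of 17 alternatives. Sparc and Fn1, neither of them called, changed sign: Sparc had 0.036 with median-of-ratios rescaling, 0.048 in DESeq2, 0.25 without wild-type C1 and 0.15 without the SE library of the knockout (-0.30 without wild-type SE), and Fn1 had -0.038 with quantile normalization, -0.71 without wild-type C1, -0.96 without the SE library of the knockout and -0.23 without both SE libraries (0.75 without wild-type SE). With the suffix as a block, all genes called numbered 3530 higher and 4038 lower, elastic fibre glycoproteins 12 higher, receptors 8 higher, cross-linking enzymes 12 higher and 2 lower, YAP and TAZ targets 10 higher, and upstream regulators 9 higher and 8 lower. edgeR called 1 elastic fibre glycoprotein lower and DESeq2 7 YAP and TAZ targets higher. For the lists, a direction is named here and in the next paragraph only where its count moved beyond a set ratio from the main fit. A direction left unnamed kept a count near that of the main fit.

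The fits with fewer libraries depend on whether the tested genes were kept or the filter was applied again to the remaining libraries. The kept set was chosen after the re-applied filter had been seen. Without both SE libraries and with genes kept, 1418 genes were called higher and 1404 lower, and the filter applied again gave 2454 and 2512. For the members these were 2 higher and 2 lower with genes kept against 4 and 1 with the filter applied again, in which Tgfbi was no longer tested. With genes kept, family relatives numbered 4 higher and 1 lower, elastic fibre glycoproteins 1 lower, receptors 3 higher and YAP and TAZ targets 3 lower. With the filter applied again, family relatives numbered 1 lower, elastic fibre glycoproteins 12 higher and 1 lower, cross-linking enzymes 2 lower, YAP and TAZ targets 9 higher and 2 lower, and upstream regulators 9 higher and 7 lower.

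Without single libraries, all genes called ranged from 846 to 2409 higher and 764 to 2629 lower with genes kept, and from 1049 to 2332 and 594 to 2632 with the filter applied again. The members ranged from 1 to 3 higher and 1 to 2 lower with genes kept, the lowest without wild-type C1, and from 2 to 3 and 0 to 2 with the filter applied again. Over both versions, family relatives ranged from 4 to 7 higher and 0 to 2 lower, elastic fibre glycoproteins from 4 to 8 and 0 to 2, receptors from 3 to 5 and 0 to 4, cross-linking enzymes from 3 to 6 higher with 1 lower, YAP and TAZ targets from 3 to 5 and 0 to 6, and upstream regulators from 1 to 6 and 0 to 9. Fewer genes are tested where the filter is applied again, and the cause of the other shifts was not tested. The ratio of the summed members was 1.75 with the longest transcript as length. No paired analysis was possible because the columns do not carry the replicate numbers of the sample titles; the column suffix shared by the genotypes, whose meaning is not given, served as the block above instead.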
